A study of Mus musculus with 32 samples.

Results

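The genes described here are those of the proteasome, the barrel-shaped protease that degrades proteins tagged with ubiquitin. They were taken as every gene on the array whose mouse symbol starts with Psm, then a letter from a to g, then a number. Of 50 such genes, 48 had a probe called well above background on at least 4 of the 32 arrays, out of 14856 genes that passed the same filter and 20659 named genes in all. Psma8, the testis form of an alpha subunit, and Psmb11, the thymus form of a beta subunit, missed the filter. Psmc3ip and Psme3ip1 match the name pattern but are partners and not parts of the proteasome, which left 46 members. Psmb8, Psmb9 and Psmb10, the catalytic genes of the immunoproteasome, were set apart from the other 43. All 46 members entered every comparison.

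Brown fat was studied after loss of Pparg, the nuclear receptor that drives adipocyte differentiation, or of glycerol kinase, which the labels call Gyk and the gene table Gk. Each group held 4 one-colour Agilent arrays of C57Bl/6 mouse samples. In culture there were control and knockdown arrays for Pparg and for Gyk, whose titles name no temperature. From mice there were Pparg control arrays and arrays labelled knockout, at room temperature and after cold exposure. The labels give no age, no means of knockdown or knockout, and no temperature in degrees. They do not say whether the 4 replicates are separate animals or cultures, so the p-values below rest on a spread that may be only technical.

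The core of the proteasome is a stack of rings of alpha subunits (Psma genes), which gate the entrance, and beta subunits (Psmb genes), of which Psmb5, Psmb6 and Psmb7 cut peptide bonds. The regulatory particle on each end holds a ring of ATPases (Psmc genes) that unfold the substrate and non-ATPase subunits (most Psmd genes) that bind ubiquitin chains and remove them. Interferon induces Psmb8, Psmb9 and Psmb10, which take the places of Psmb5, Psmb6 and Psmb7 in newly built particles and change the peptides offered to T cells. In brown fat, the transcription factor Nrf1 (gene Nfe2l1) is known to raise proteasome genes in the cold, through the antioxidant response element.

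The stretches before the start sites of 6 members are printed as examples. Psmd14, Psmd1 and Psmd12 are among the members whose response to the labelled knockout differed between the temperatures. Psmd13, Psmd5 and Psmc1 differed more than Psmd12 (-0.91, -0.71 and -0.66 against -0.64) but are not printed. None of these 3 had a match to the antioxidant response element, whereas Psmd12 has one. Psmb5 is the catalytic gene that fell in all 3 Pparg comparisons, and Psmb8 and Psmb9 rose after Pparg knockdown in culture. Each line holds the 250 bases before the start of the gene in RefSeq (build GRCm38.p6), 5′ to 3′ on the strand of the gene. Capitals mark matches, on either strand, to TGACNNNGC (antioxidant response element), GAAA, any 2 bases and GAAA (interferon-stimulated response element), TTCNNNGAA (gamma-activated site), CCAAT (the box bound by NF-Y) or AGGTCA, any base and AGGTCA (a direct repeat of the kind bound by Pparg with its partner Rxr). No matches overlapped in these 6 stretches.
Psmd14, chr2:61711444-61711693, plus strand: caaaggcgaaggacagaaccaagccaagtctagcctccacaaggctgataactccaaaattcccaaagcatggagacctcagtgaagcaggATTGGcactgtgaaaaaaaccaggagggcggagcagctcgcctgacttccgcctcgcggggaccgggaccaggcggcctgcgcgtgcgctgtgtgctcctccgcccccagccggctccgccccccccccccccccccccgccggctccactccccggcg
Psmd1, chr1:86064369-86064618, plus strand: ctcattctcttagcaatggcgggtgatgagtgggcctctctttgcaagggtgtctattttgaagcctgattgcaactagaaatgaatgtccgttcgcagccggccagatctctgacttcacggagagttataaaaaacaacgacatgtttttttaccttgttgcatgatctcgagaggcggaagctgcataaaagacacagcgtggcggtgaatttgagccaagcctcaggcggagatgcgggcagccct
Psmd12, chr11:107479278-107479527, plus strand: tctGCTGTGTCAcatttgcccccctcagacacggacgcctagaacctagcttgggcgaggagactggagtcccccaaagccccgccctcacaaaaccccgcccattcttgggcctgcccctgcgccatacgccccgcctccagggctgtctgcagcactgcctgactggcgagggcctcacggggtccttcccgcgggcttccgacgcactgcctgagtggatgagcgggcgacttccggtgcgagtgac
Psmb5, chr14:54617996-54618245, minus strand: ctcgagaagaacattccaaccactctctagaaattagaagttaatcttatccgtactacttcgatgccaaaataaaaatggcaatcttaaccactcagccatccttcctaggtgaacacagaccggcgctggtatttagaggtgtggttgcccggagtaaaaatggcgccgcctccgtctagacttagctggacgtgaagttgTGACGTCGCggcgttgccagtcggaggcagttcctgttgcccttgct
Psmb8, chr17:34197945-34198194, plus strand: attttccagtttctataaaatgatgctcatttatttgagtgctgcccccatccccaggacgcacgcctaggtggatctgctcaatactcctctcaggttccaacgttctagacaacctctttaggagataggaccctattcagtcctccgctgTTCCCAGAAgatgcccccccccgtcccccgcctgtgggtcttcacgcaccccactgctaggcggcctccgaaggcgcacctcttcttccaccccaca
Psmb9, chr17:34187331-34187580, minus strand: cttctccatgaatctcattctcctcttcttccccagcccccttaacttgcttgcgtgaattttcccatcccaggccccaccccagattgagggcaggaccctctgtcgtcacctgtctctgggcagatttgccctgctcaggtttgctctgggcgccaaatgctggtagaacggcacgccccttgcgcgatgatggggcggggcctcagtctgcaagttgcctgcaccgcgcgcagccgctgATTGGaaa
The promoter table held 39 of the 46 members. The antioxidant response element was matched in 5 of the 36 members other than the immunoproteasome genes (Psmb5, Psmb6, Psmc6, Psmd9 and Psmd12), or 13.9%, against 11.5% of all 27025 promoters of the same length. In Psmb5 it starts 47 bases before the start site and reads TGACGTCGC. The gamma-activated site was matched in 1 of 36 (Psmg1), or 2.78%, against 8.13% of all promoters, and in 1 of the 3 immunoproteasome genes, Psmb8, where it reads TTCCCAGAA 97 bases before the start site. The interferon-stimulated response element was matched in 3 of 36 members (8.33%, against 3.46%), and the CCAAT box in 12 of 36 (33.3%, against 37.5%). The direct repeat was matched in none of the 39 and in 11 promoters in all (0.0407%). A match describes the letters in this window, and no match says only that these letters are not in it.

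Values are log2 of the background-subtracted intensity minus the 75th percentile of that array, so 0 is the 75th percentile, and different probes are never set against each other. Each of 6 brown adipocyte markers was well above background on at least 1 array of every group, except Dio2 and Elovl3 after Pparg knockdown and Elovl3 after Gyk knockdown, although the labels name preadipocytes. The Pparg probe fell in the culture knockdown, from 6.13 to 6.52 on control arrays to 4.25 to 4.56. It was higher, not lower, on the arrays labelled knockout, at 7.47 to 7.63 against 5.34 to 5.60 at room temperature and 8.05 to 8.23 against 5.42 to 6.56 in the cold. The labels do not say which part of the gene was deleted, so the probe may lie outside it, and these arrays are called labelled knockout throughout. Gk fell in the Gyk knockdown, from between 0.44 and 0.61 to between -2.77 and -0.99. The 75th percentile of the arrays lay between 125.6 and 728.4 units, lowest on Gyk knockdown arrays 3 and 4 (125.6 and 213.8), and no spot was saturated. Each experiment was hybridised on 2 slides and scanned on its own day. Myh4, a myosin of fast skeletal muscle, was well above background on 5 mouse arrays: room temperature labelled knockout 1, cold control 1, 2 and 4, and cold labelled knockout 4.

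In cold-exposed mice, proteasome genes were lower throughout the particle on the arrays labelled knockout. Of the 46 members, 35 fell and none rose by limma (p adjusted by Benjamini-Hochberg across the 12981 genes in the fit, threshold 0.05), while 17.8% of all genes tested fell and 14.0% rose. At an unadjusted p under 0.05, 39 members were lower and none higher, and the share of all genes at that p is not given here. The median difference was -0.61 on the log2 scale over all members and -0.04 over all genes. All 43 members outside the immunoproteasome had lower means, by 0.16 to 1.05, and on 34 of the 46 every labelled knockout array lay below every control array, which held for 19.7% of all genes.

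All 7 alpha ring genes fell, with a median of -0.74. Psma6, an alpha ring subunit, read 5.24, 5.24, 5.09 and 5.26 on the control arrays and 4.47, 4.30, 3.82 and 4.05 on the arrays labelled knockout. The groups did not overlap, and the fall was 2.07-fold (log2 difference -1.05, SE 0.15, limma adjusted p = 0.00192). All 7 constitutive beta ring genes fell as well, with a median of -0.61. Psmb7, the trypsin-like site, read 4.91, 4.68, 4.68 and 4.77 against 4.01, 4.02, 3.70 and 3.79, again without overlap (-0.88, SE 0.13, limma adjusted p = 0.00162). Psmb5, the chymotrypsin-like site, read 7.89, 7.55, 7.28 and 7.64 against 7.35, 6.90, 6.78 and 6.89. Here labelled knockout array 1 lay above control array 3, and the difference was -0.61 (SE 0.18, limma adjusted p = 0.028). Psmb6, the caspase-like site, showed the smallest change of the ring, -0.32 (SE 0.10, limma adjusted p = 0.0449).

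All 11 non-ATPase subunits of the regulatory particle fell, with a median of -0.79, and none overlapped between the groups. Psmd1, a large scaffold subunit of the base, read 3.95, 3.75, 3.97 and 4.36 on control arrays and 3.09, 3.06, 2.97 and 3.02 on arrays labelled knockout. Its lowest control array stood clear of the highest labelled knockout array, and the fall was 1.96-fold (-0.97, SE 0.14, limma adjusted p = 0.00196). Psmd8, a lid subunit, read 4.91, 4.71, 4.74 and 5.08 against 4.07, 4.15, 3.46 and 3.74 (-1.0, SE 0.18, limma adjusted p = 0.00396). Psmd14 is the enzyme that cuts ubiquitin chains off the substrate. It read 1.77, 1.6, 1.94 and 2.06 against 1.32, 1.11, 0.86 and 0.98, a difference of -0.77 (SE 0.15, limma adjusted p = 0.00591). Psmd4, a ubiquitin receptor, differed by -0.88 (SE 0.13). Of the 6 ATPases, 4 fell, and the median was -0.56. Psmc4 read 4.98, 4.49, 4.45 and 4.73 against 3.90, 3.66, 3.40 and 3.50, without overlap (-1.05, SE 0.17, limma adjusted p = 0.00255). Psmc3 and Psmc6, the ATPases that did not pass, both stood at -0.36.

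Outside the core and the regulatory particle fewer members passed. Among the activators, caps that open the core without ATP, 2 of 4 fell. Psme3, the nuclear activator, read -0.06, 0.08, -0.32 and -0.19 on control arrays and -0.67, -1.09, -1.24 and -1.50 on arrays labelled knockout (-1.0, SE 0.19, limma adjusted p = 0.00501). Psme2, a subunit of the interferon-inducible activator, fell by 0.60 (SE 0.13), whereas its partner Psme1 overlapped between the groups at -0.28 (SE 0.15, limma adjusted p = 0.177). Near-identical copies of Psme2 exist in the mouse genome, so its probe may read more than this gene. Of the assembly chaperones, 1 of 3 for the regulatory particle (Psmd5) and 2 of 4 for the core (Psmg3 and Psmg4) fell, and the inhibitor Psmf1 fell by 0.61 (SE 0.19, limma adjusted p = 0.0352). The calls of 27 of the 35 held whichever array was left out. Those lost on leaving out some single array were Psma2, Psma7, Psmb5, Psmb6, Psmc5, Psmd5, Psmf1 and Psmg3.

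**Figure D1:**
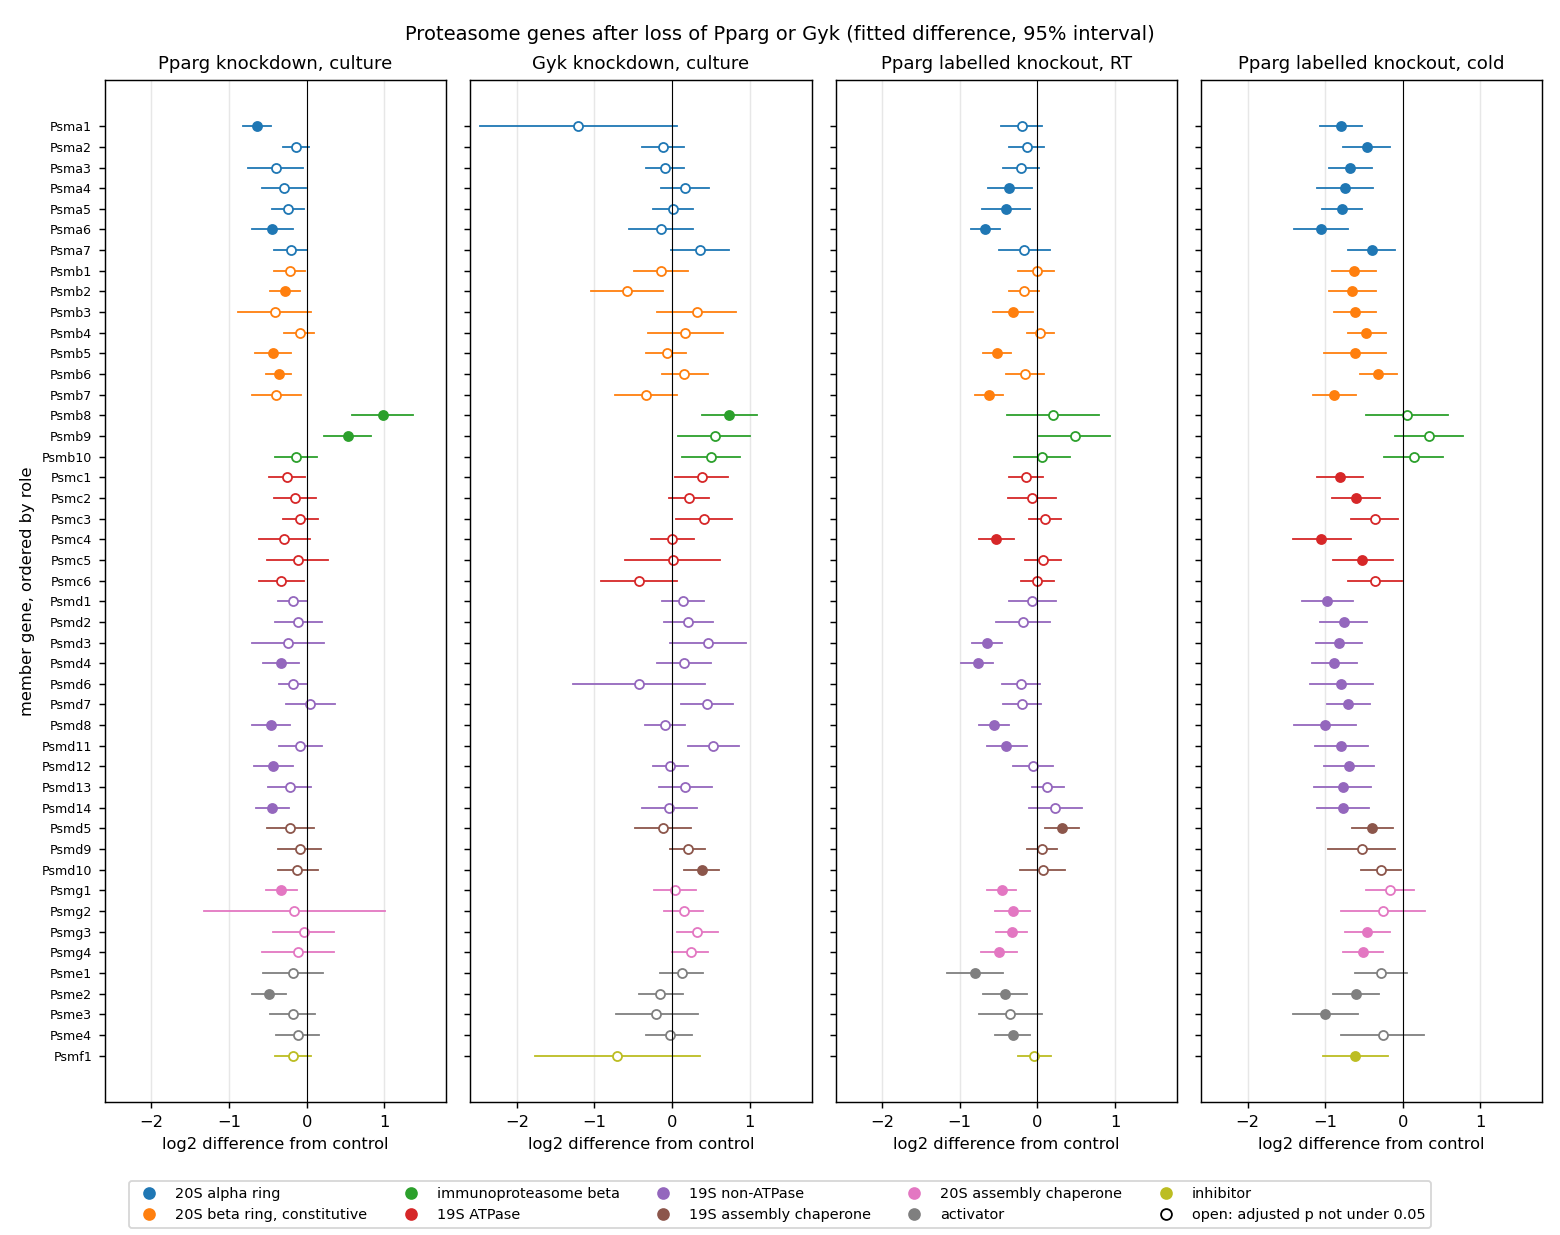
Fitted log2 difference from control (x axis) of each of the 46 members (y axis, ordered and coloured by role) in the 4 loss comparisons, with 95% intervals. Filled points passed limma's adjusted p under 0.05: 35 members lie to the left in the cold, 18 at room temperature and 11 after Pparg knockdown in culture, while Psmb8 lies to the right in both cultures.

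Markers of other cells moved with the cold result. Of 5 measured skeletal muscle markers, 1 fell in limma. The summed log2 level of the list ran from 4.24 to 7.84 on cold control arrays and from 3.08 to 5.05 on arrays labelled knockout. The low end of each range was mostly Myl1, at 4.23 on control 3 and 3.05 on labelled knockout 3. The mean of Myl1 also went from -1.35 to -3.78 after Pparg knockdown in culture. Myh4 read 5.44, 5.71, -6.37 and -0.85 on cold controls and -6.69, -6.32, -6.50 and 3.36 on arrays labelled knockout. The slides differed in their muscle markers. On the slide with control arrays 1 and 2, the median of the muscle markers was -9.0 and that of the members -0.49. On the slide with control arrays 3 and 4 the muscle markers stood 1.47 higher in the labelled knockout, and the median of the members was -0.77. Without the 3 arrays on which Myh4 exceeded the 75th percentile (controls 1 and 2 and labelled knockout 4), a choice made after seeing the data, 2 controls and 3 labelled knockout arrays remained. Then 16 members fell (10.1% of genes did), with a median of -0.63, and 44 of 46 were lower. Among them, Psmd1 stood at -1.13 and Psmd14 at -0.90. Without control 4 as well, 1 control array remained, assumed to vary like the others. No member passed in limma, where 0.735% of genes fell, 14 had an unadjusted p under 0.05, and the median was -0.50. All 6 macrophage markers rose, from a summed 4.08 to 4.37 up to 4.84 to 5.48, and 5 of 6 adipocyte markers fell, from 10.48 to 10.61 down to 9.34 to 9.85. The part of these cells in the members' change was not tested, and in bulk RNA fewer cells of a type cannot be told apart from less RNA per cell.

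**Figure D2:**
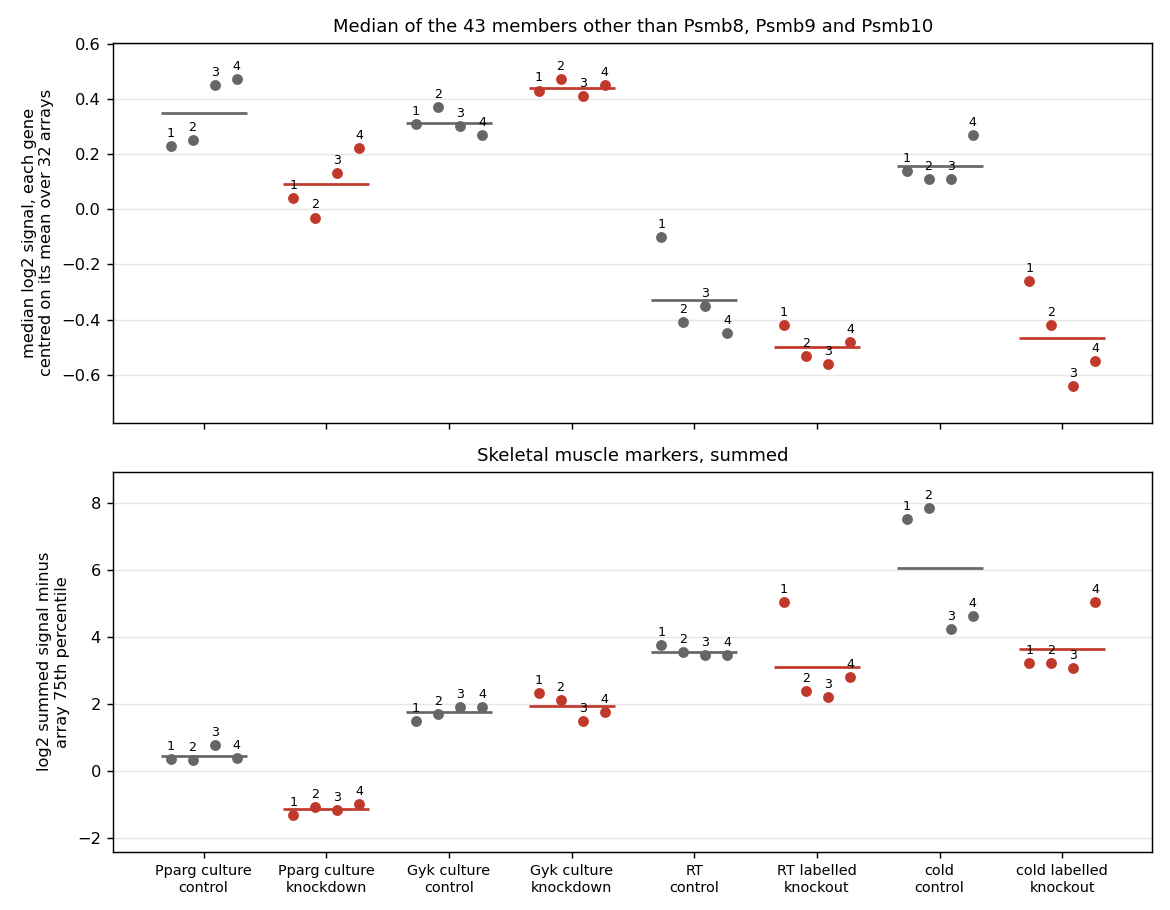
Upper panel: median over the 43 members other than the immunoproteasome genes on each array (y axis, log2, each gene centred on its mean over the 32 arrays), by group (x axis), with the array number above each point and a bar at the group mean. Lower panel: summed skeletal muscle markers (y axis, log2 minus the array's 75th percentile) on the same arrays. Cold control array 3 stands at 0.11 in the upper panel and 4.24 in the lower, and array 4 at 0.27 and 4.63. On both arrays the sum is mostly Myl1 (4.23 and 4.49), whereas Myh4 read -6.37 and -0.85.

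At room temperature fewer members differed. Psmd5, a chaperone of the regulatory particle, rose, and 18 of 46 members fell, in limma over 13229 genes of which 24.0% fell and 20.6% rose. The median was -0.19 over the members and -0.03 over all genes, and 35 members had lower means. On 18 of the 46 the arrays labelled knockout all lay below the controls, against 23.0% of all genes. The arrays labelled knockout were brighter here, with 75th percentiles of 466.6 to 565.0 units against 278.6 to 385.9 for the controls. With quantile normalization 28 of the 46 members had lower means and 14 fell, and the median was -0.10, against 0.02 over all genes. The part of brightness in these differences was not tested.

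The members that fell at room temperature were spread over the particle: 3 of 7 alpha genes, 3 of 7 beta genes, 1 of 6 ATPases, 4 of 11 non-ATPases, 3 of 4 activators and all 4 core chaperones (Psmg1 to Psmg4). Psme1 read 3.46, 4.0, 3.73 and 4.18 on the controls and 3.1, 2.98, 2.91 and 3.19 on arrays labelled knockout, without overlap (-0.80, SE 0.16, limma adjusted p = 0.00406). Psmd4, the ubiquitin receptor, read 6.27, 6.02, 6.28 and 6.05 against 5.40, 5.42, 5.29 and 5.43. All of its labelled knockout arrays were well below the controls (-0.77, SE 0.09, limma adjusted p = 0.000308). Psma6 read 4.59, 4.37, 4.41 and 4.36 against 3.83, 3.69, 3.80 and 3.74 (-0.67, SE 0.08, limma adjusted p = 0.000397). Psmb5 read 7.48, 7.48, 7.46 and 7.63 against 6.96, 6.90, 7.06 and 7.06 (-0.52, SE 0.08, limma adjusted p = 0.00112). The chaperone Psmg4 read 1.07, 0.97, 1.27 and 1.06 against 0.54, 0.61, 0.79 and 0.47, again apart (-0.49, SE 0.10, limma adjusted p = 0.00508). Psmd5 read 0.94, 0.83, 0.77 and 0.60 against 1.17, 1.07, 1.18 and 1.0 (0.32, SE 0.10, limma adjusted p = 0.0247). Calls that some single left-out array ended were those of Psma4, Psma5, Psmb3, Psmd5, Psmd11, Psme2, Psme4 and Psmg2, and 11 held throughout. Without labelled knockout array 1, the array with muscle RNA, 13 members fell (21.3% of genes did) and the median was again -0.19. Of the adipocyte markers 5 of 6 fell, from a summed 10.27 to 10.64 down to 9.37 to 9.46, and 5 of 6 endothelial markers fell too, from 4.89 to 5.50 down to 4.51 to 4.75. Their part in the members' change was not tested.

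Whether the response to the labelled knockout differed between temperatures was tested as a difference of differences over all 16 mouse arrays. Each temperature had its own slides and scan day, so temperature and experiment cannot be told apart here. The labelled knockout arrays were brighter than controls at room temperature but not in the cold (75th percentiles of 268.1 to 281.0 against 250.4 to 323.9 units). The part of this was not tested. For 12 members the difference was lower in the cold than at room temperature, where 7.49% of 14064 genes were lower and 5.92% higher. None was higher in limma, and Psme1 alone was higher at an unadjusted p under 0.05. The median over the members was -0.39, against -0.02 over all genes, and 41 of 46 members were lower. The 12 were Psma1, Psma3, Psmb1, Psmb2, Psmb4, Psmc1, Psmd1, Psmd5, Psmd7, Psmd12, Psmd13 and Psmd14.

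Psmd14 showed the largest of these, -1.01 (SE 0.22, limma adjusted p = 0.009). At room temperature it read 1.39, 1.04, 1.10 and 0.86 on the controls and 1.68, 1.17, 1.20 and 1.27 on arrays labelled knockout, which overlapped at slightly higher values. In the cold its groups lay apart in the other direction. Psmd13, a lid subunit, read 3.12, 3.16, 3.11 and 3.05 against 3.45, 3.18, 3.11 and 3.24 at room temperature and 3.83, 3.96, 3.80 and 4.0 against 3.45, 3.25, 2.74 and 3.07 in the cold (-0.91, SE 0.18, limma adjusted p = 0.00711). Psmd1 overlapped at room temperature (4.08, 3.53, 3.59 and 3.51 against 3.68, 3.65, 3.55 and 3.57), and its difference of differences was -0.91 (SE 0.20, limma adjusted p = 0.00964). Psmd4 and Psma6, by comparison, had differences of differences of -0.11 (SE 0.15) and -0.38 (SE 0.17) that did not pass. Psmb1, Psmb4, Psmc1, Psmd1, Psmd5, Psmd13 and Psmd14 were called whichever array was left out. The count fell to 7 without room temperature control 4 or without cold labelled knockout 4 and rose to 21 without cold labelled knockout 1. Without the arrays on which Myh4 exceeded the 75th percentile, 5 members were lower, against 6.11% of genes (Psmd14 -1.02, Psmd1 -1.04). Without all 5 arrays holding Myh4 none was called in limma, where 1.55% of genes were lower, 9 had an unadjusted p under 0.05, and the median was -0.32.

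**Figure D3:**
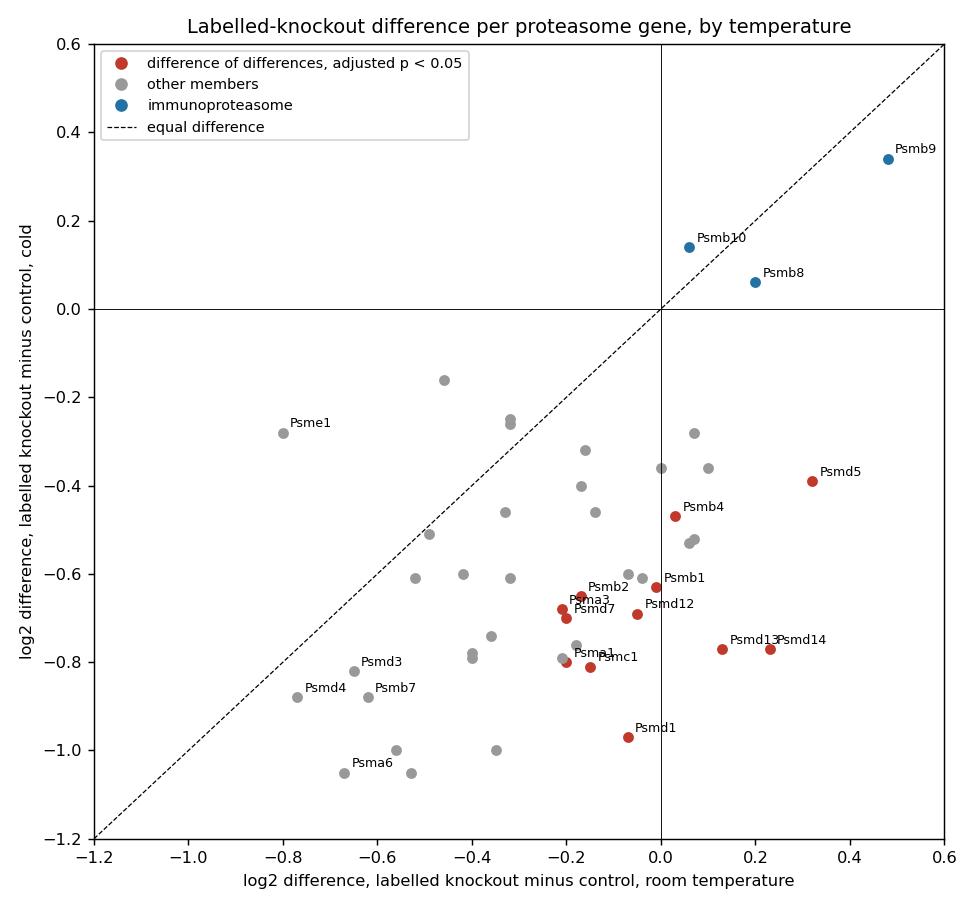
Log2 difference between labelled knockout and control arrays at room temperature (x axis) and in the cold (y axis), 1 point per member, with a dashed line of equal difference. Points below the line were lower in the cold: the 12 red points passed the test of the difference of differences, Psmd14 stands at 0.23 and -0.77, and the 3 immunoproteasome genes (blue) lie above 0 on both axes.

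In culture, proteasome genes were slightly lower after Pparg knockdown, and the immunoproteasome genes Psmb8 and Psmb9 rose. Of the 46 members, 11 fell and these 2 rose in limma, against 16.4% of 12842 genes that fell and 17.3% that rose, so the share that fell was not far from the background. The median was -0.21 over the members and 0.01 over all genes, with 43 of 46 lower. This gap depended on the processing. With the normexp background the medians were -0.13 and -0.08, and with quantile normalization -0.11 and 0.01, each with 39 of 46 lower. Control and knockdown arrays of the same slide deviated together, whether or not they shared a number. With the replicate number as a block 31 members fell and 2 rose, against 28.5% and 29.3% of all genes. The numbers follow the slides here, and a slide block gave 30 fallen members (29.1% of genes). The median was -0.21 on each slide.

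The 11 members were Psma1 and Psma6 of the alpha ring, Psmb2, Psmb5 and Psmb6 of the beta ring, Psmd4, Psmd8, Psmd12 and Psmd14 of the regulatory particle, the activator Psme2 and the chaperone Psmg1. Psma1 changed most. It read 4.75, 4.69, 4.57 and 4.62 on control arrays and 4.12, 4.05, 3.96 and 3.94 on knockdown arrays, without overlap (-0.64, SE 0.08, limma adjusted p = 0.000349). Psme2 read 5.51, 5.42, 5.24 and 5.29 against 5.01, 4.92, 4.70 and 4.86 (-0.49, SE 0.10, limma adjusted p = 0.00467). Psmb5, with array 2 of the controls left out as an outlying spot, read 7.45, 7.51 and 7.65 against 7.17, 6.99, 7.04 and 7.23. Its knockdown arrays were all lower (-0.43, SE 0.10, limma adjusted p = 0.0126). Psmb6 read 6.59, 6.57, 6.65 and 6.68 against 6.29, 6.17, 6.29 and 6.30 (-0.36, SE 0.07, limma adjusted p = 0.00438). Psmb7 read 4.40, 4.51, 4.84 and 4.83 against 4.10, 4.09, 4.38 and 4.47, with arrays of the first slide lower than those of the second in both groups. Its adjusted p in limma was 0.0608 without a block and 0.00114 with the replicate block. Psmd14 read 2.32, 2.23, 2.58 and 2.36 against 1.91, 1.85, 1.98 and 1.99 (-0.44, SE 0.09, limma adjusted p = 0.00589). No ATPase passed without a block, and all 6 had lower means, with a median of -0.20. The calls of Psma6, Psmb2, Psmd4 and Psmg1 were lost on leaving out some single array. All 6 adipocyte markers fell in the same arrays, from a summed 9.64 to 9.93 down to 8.19 to 8.64, and the part of this loss in the members' change was not tested.

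The Pparg comparisons of culture and mice share no arrays and can be set side by side. Of the 11 members that fell in culture, 10 also fell in the cold and 6 at room temperature. Of all 46 members, 35 fell in the cold and 18 at room temperature. Among the 18, 14 were also among the 35, a share close to that over all members. The overlap over all genes is not given here. The size of the change was only loosely shared: over the 43 members, Pearson's r between culture and cold was 0.32, between culture and room temperature 0.25, and between room temperature and cold 0.28. These are descriptions across genes measured on the same arrays, and genes are not independent replicates. Psma6, Psmb5, Psmd4, Psmd8 and Psme2 fell in all 3.

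Gyk knockdown called few members. Psmb8 and Psmd10 rose and none fell in limma over 12219 genes, of which 4.62% rose and 3.67% fell. At an unadjusted p under 0.05 there were 9 higher and 1 lower, and the share of all genes at that p is not given here. The median was 0.13 over the members and 0.02 over all genes, and 18 members were lower. With the normexp background the medians were 0.01 and 0.05. Psmd10, a chaperone that helps assemble the regulatory particle, read 1.03, 0.98, 1.10 and 1.07 on controls and 1.48, 1.47, 1.39 and 1.36 on knockdown arrays, without overlap (0.38, SE 0.09, limma adjusted p = 0.0466). The other Psmd10 probe, well above background on 20 arrays of the series, stood at 0.01. The call of Psmd10 was lost on leaving out any of the 8 arrays, and that of Psmb8 on leaving out 5 of them (controls 1, 2 and 3, knockdown 2 and 4). The count was 0 without controls 1, 2 or 3 or knockdown 2 or 4, 1 without control 4 or knockdown 3, and 6 without knockdown array 1. The knockdown arrays varied widely for some genes. Psma1 read 5.08, 4.84, 5.22 and 5.18 on controls and 5.0, 3.79, 4.58 and 2.12 on knockdown arrays (-1.21, SE 0.55, limma adjusted p = 0.206). Psmf1 read -1.55 and -1.69 on the dim knockdown arrays 3 and 4 and 0.34 and 0.10 on arrays 1 and 2, against -0.15 to 0.23 on controls.

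The knockdown effects of Pparg and Gyk differed for 4 members, all lower with Pparg: Psmb6 (-0.52, SE 0.14, limma adjusted p = 0.0262), Psmc1 (-0.63, SE 0.18), Psmd10 (-0.50, SE 0.14) and Psmd11 (-0.62, SE 0.19, limma adjusted p = 0.0469). In this test 6.56% of 13118 genes were lower and 5.97% higher, and the median over the members was -0.32, against -0.03 over all genes. With the normexp background the medians were -0.20 and -0.15. Each knockdown experiment had its own slides and scan day, so target and experiment cannot be told apart. The replicate block, set by number in both experiments although the numbers did not pair the Gyk arrays, gave 9 members. The median was then -0.31 over the members and -0.03 over all genes, and the share of all genes called is not given here. Psmd11, a lid subunit, read 3.01, 2.86, 3.29 and 3.26 on Pparg controls and 2.90, 2.93, 3.21 and 3.05 after knockdown. For Gyk it read 3.01, 3.13, 3.15 and 2.89 against 3.34, 3.42, 3.81 and 3.74. The overlap in the first pair and the gap in the second make up its difference. The Psmc1 probe used here stood at -0.25 with Pparg knockdown and 0.38 with Gyk knockdown. The other Psmc1 probe, also well above background on all 32 arrays, stood at -0.17 and -0.69, a difference in the other direction. Each of the 4 calls was lost on leaving out some single array, and the count was 0 without Pparg controls 3 or 4, Pparg knockdown 2 or Gyk controls 2 or 4, 1 without Pparg knockdown 1, 2 without Gyk controls 1 or 3 or Gyk knockdown 3 or 4, and 9 without Gyk knockdown 1.

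The immunoproteasome genes stood apart from the core. Psmb8, which takes the place of Psmb5, read 0.55, 0.50, 1.08 and 1.02 on Pparg culture controls and 1.53, 1.63, 1.93 and 1.99 on knockdown arrays. Every knockdown array was higher, and the rise was 1.98-fold (0.98, SE 0.17, limma adjusted p = 0.00224). With Gyk knockdown it read 2.50, 2.25, 2.30 and 2.70 against 2.96, 3.41, 3.02 and 3.29, also apart (0.73, SE 0.16, limma adjusted p = 0.0284). The difference between these effects was 0.25 (SE 0.24, limma adjusted p = 0.575). In mice Psmb8 overlapped at both temperatures, at 0.20 (SE 0.26) at room temperature, where labelled knockout array 4 alone read 1.94 and the others 0.72 to 0.91, and at 0.06 (SE 0.23) in the cold.

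Psmb9, which takes the place of Psmb6, read 1.77, 1.86, 2.16 and 2.27 on Pparg culture controls and 2.47, 2.38, 2.69 and 2.64 on knockdown arrays, without overlap (0.53, SE 0.13, limma adjusted p = 0.015). After Gyk knockdown it read 3.28, 3.90, 3.40 and 3.39 against 2.98, 2.48, 3.16 and 3.16 on controls. All knockdown arrays were higher, but the difference of 0.55 (SE 0.20) did not pass (limma adjusted p = 0.132). In mice Psmb9 stood at 0.48 (SE 0.20, limma adjusted p = 0.0848) at room temperature and 0.34 (SE 0.19, limma adjusted p = 0.215) in the cold. At room temperature the groups did not overlap, but narrowly. Labelled knockout array 4 read 1.67 and the others 0.78 to 0.96, against 0.31 to 0.75 on controls. Psmb10, which takes the place of Psmb7, read 5.33, 5.21, 5.44 and 5.63 against 5.19, 5.07, 5.35 and 5.43 after Pparg knockdown and overlapped (-0.14, SE 0.12, limma adjusted p = 0.406, and 0.0317 with the replicate block). After Gyk knockdown it read 5.30, 5.55, 5.91 and 5.93 against 5.20, 5.06, 5.13 and 5.30 on controls (0.50, SE 0.16, limma adjusted p = 0.0945). In mice its differences were 0.06 (SE 0.16) and 0.14 (SE 0.17). Without a block none of the 3 fell in limma in the 4 loss comparisons, and none had a lower mean in mice, while Psmb5 and Psmb7 fell on the arrays labelled knockout at both temperatures and Psmb6 in the cold.

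**Figure D4:**
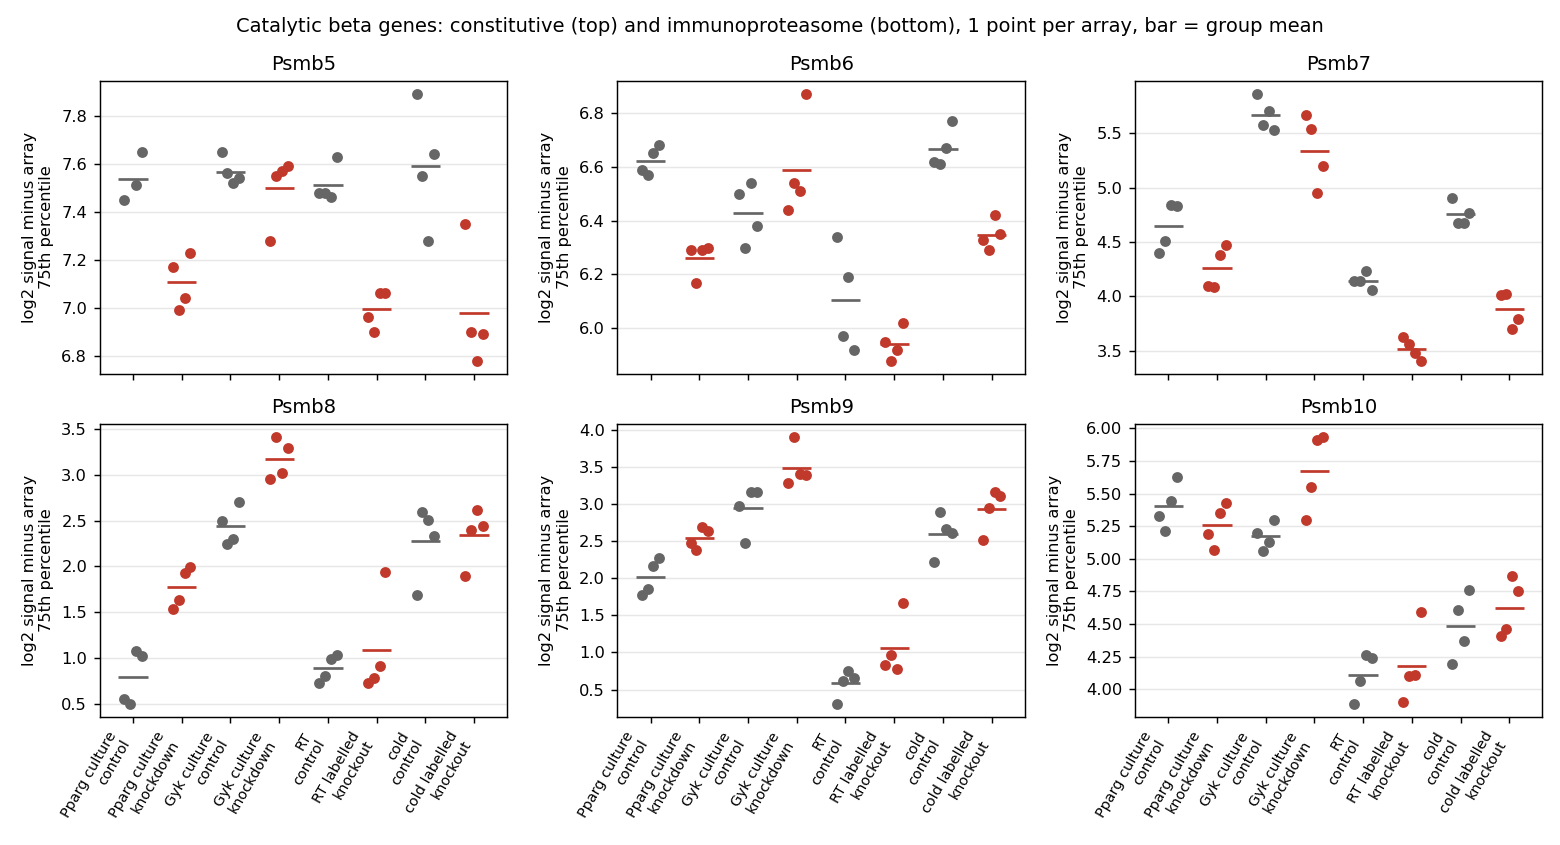
Log2 signal minus the array's 75th percentile (y axis) of the constitutive catalytic genes (upper row) and the immunoproteasome genes (lower row) on each array, by group (x axis), with a bar at the group mean. Psmb8 is higher on all 4 knockdown arrays than on all 4 controls in both cultures, while Psmb5 is lower on all 4 arrays labelled knockout at room temperature.

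Over the 8 group means, Psmb8 and Psmb9 had a Pearson's r of 0.88, Psmb9 and Psmb10 of 0.72, and Psmb8 and Psmb10 of 0.45. Psmb9 was lowest on the room temperature controls and highest after Gyk knockdown. The 5 other genes whose group means followed the 3 most closely were Fam168a, Ddx58, Rhog, Scnm1 and Dcxr, each with a mean r of 0.88 over 8 group means. Ddx58 encodes the RNA sensor RIG-I, itself induced by interferon. Its group means ran from -0.17 in the room temperature controls to 2.72 after Gyk knockdown. Groups of the same experiment share slides and a scan day, and these likenesses are descriptions.

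Other genes of the pathway were read from lists of textbook genes. Of 17 measured cofactors and shuttles of the proteasome, 5 fell in the cold on arrays labelled knockout and none rose, with a median of -0.33. Of all genes tested there, 17.8% fell and 14.0% rose. Ubqln1, a shuttle that carries ubiquitinated proteins to the proteasome, read 2.32, 1.84, 2.13 and 2.25 against 1.16, 1.25, 0.75 and 1.20 (-1.05, SE 0.16, limma adjusted p = 0.00221). Adrm1, a ubiquitin receptor of the particle, fell by 0.91 (SE 0.17). At room temperature 4 of the 17 fell and 2 rose, where 24.0% of all genes fell and 20.6% rose, so the count of falls is at the background. After Pparg knockdown 4 fell and 1 rose, against 16.4% and 17.3% of all genes, and with the replicate block 8 fell and 3 rose, against 28.5% and 29.3%. With Gyk knockdown limma called none. At an unadjusted p under 0.05, 1 was higher and 2 lower, and the share of all genes at that p is not given here.

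Of 8 genes that control the transcription of proteasome genes, 3 fell and 1 rose in the cold, the rise being that of Nfe2l2. Of all genes tested there, 17.8% fell and 14.0% rose, so the count of rises is near the background. Nfe2l1 read 1.59, 1.37, 1.30 and 1.32 on the controls and 0.52, 0.59, 0.56 and 0.55 on the arrays labelled knockout, far apart (-0.84, SE 0.11, limma adjusted p = 0.00124). It fell at room temperature as well, where it read 1.26, 1.27, 1.33 and 1.08 against 0.27, 0.17, 0.29 and 0.36 (-0.96, SE 0.08, limma adjusted p = 7.58e-05). The difference between these was 0.12 (SE 0.12, limma adjusted p = 0.551). In culture Nfe2l1 stood at -0.43 with Pparg knockdown (SE 0.17, limma adjusted p = 0.0912, or 0.00969 with the replicate block). Nfe2l2, which encodes the related factor Nrf2, went the other way in mice, rising by 1.09 (SE 0.16) at room temperature and 0.98 (SE 0.16) in the cold. In culture it stood at 0.42 with Pparg knockdown (SE 0.15, limma adjusted p = 0.0597, or 0.000692 with the replicate block).

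On the cold arrays labelled knockout, 17.8% of all genes fell and 14.0% rose. Among 10 genes of p97 and of the degradation of proteins of the endoplasmic reticulum, 5 fell there and 1 rose. The gene that rose was Derl3, a membrane protein of this degradation, which read -3.81, -3.12, -3.19 and -4.57 on the controls and 0.53, 0.43, 1.74 and 0.59 on the arrays labelled knockout (4.50, SE 0.39, limma adjusted p = 0.000172). Those that fell included Nploc4 (-0.82, SE 0.18) and Derl1 (-1.08, SE 0.26), parts of the machinery that pulls proteins out of the membrane for the proteasome. Of the genes of ubiquitin and its activation, 2 of 8 fell in the cold, among them Ube2k, a conjugating enzyme, by 0.91 (SE 0.17), a count near the background. Among genes of class I antigen processing, which use the peptides of the immunoproteasome, 5 of 10 rose and none fell at room temperature, where 20.6% of all genes rose. In the cold 2 of 10 rose, near the 14.0% of all genes. H2-K1 rose by 0.93 (SE 0.12, limma adjusted p = 0.000455) and H2-D1 by 0.73 (SE 0.14) at room temperature. After Pparg knockdown 3 of 9 of them rose and 1 fell, and 7 of 10 interferon genes rose and 1 fell, led by Ifit3 at 1.56 (SE 0.08, limma adjusted p = 3.46e-06), where 17.3% of all genes rose. With the replicate block 6 of the 9 class I genes rose and 1 fell, and 8 of the 10 interferon genes rose and 2 fell, where 29.3% of all genes rose. With Gyk knockdown limma called none of these 2 lists. At an unadjusted p under 0.05, 7 of 10 interferon genes and 3 of 10 class I genes were higher. The share of all genes at that p is not given here. The interferon gamma gene Ifng was well above background on no array.

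Cold against room temperature is a comparison across slides and scan days, so temperature and scan cannot be told apart. In control mice 33 members were higher in the cold and 4 lower, with a median of 0.54, but 44.4% of 14064 genes were higher and 23.4% lower, with a median of 0.30. On arrays labelled knockout 16 were higher and 7 lower (median 0.18, all genes 0.29, with 43.9% higher and 22.7% lower). This split depended on the processing: it was 7 higher and 8 lower with the normexp background (median -0.03, all genes 0.36), 13 and 11 with median scaling (0.09, all genes 0.20), and 14 and 12 with the mean of all probes (0.07, all genes 0.24). Psmb9 read 0.31, 0.61, 0.75 and 0.66 on room temperature controls and 2.22, 2.90, 2.67 and 2.61 on cold controls, wholly apart (2.02, SE 0.21, limma adjusted p = 7.37e-07). Psmb8 was 1.4 higher (SE 0.26), and both were also higher on the arrays labelled knockout, by 1.88 and 1.25. Psmc5, an ATPase, and Psme3, Psmg2 and Psmg4 were lower in the cold in both genotypes. Psmg2 read 1.46, 1.44, 1.69 and 1.61 on room temperature controls and -0.21, 0.01, 0.26 and 0.87 on cold controls. In the Pparg culture arrays, however, this probe also split by slide, at 1.70 and 1.73 against 0.17 and 0.13 on controls. Of the 11 members with several probes, 4 of those called in control mice (Psma4, Psmc1, Psmd10 and Psmd12) had another probe that moved the other way. No called member did so in the 4 loss comparisons, although the other Psmd10 probe stood at only 0.01 with Gyk knockdown.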

How the data were processed

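Total RNA was hybridised to one-colour Agilent arrays. The deposited values are spot intensities from Agilent Feature Extraction 10.7.3.1, background-subtracted and spatially detrended within each array and not normalized between arrays, per the file headers and the submitters' processing notes. Control spots (1377) and 101 to 247 outlier spots per array were left out. The log2 intensity minus the array's 75th percentile was averaged per probe, 69.1% of probes were named through RefSeq's table (GRCm38.p6), and the brightest probe stood for each gene. Genes flagged as above background on 4 or more arrays of the fit were tested with limma 3.58.1 in R 4.3.3, each experiment by itself and differences of differences over 16 arrays, with Benjamini-Hochberg adjustment and a threshold of 0.05. Counts at an unadjusted p are given without the share of all genes at that p. The code was tested on simulated data.

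Members and lists were chosen with earlier results of these data known. Genes named in full are Psmb5 to Psmb10, Psme1, Psme2 and, per comparison, the called members with the 3 largest changes in either direction. Others are named to complete a list or because the text singles them out after their values were seen.

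Replicate numbers come from the labels. Same-numbered Pparg culture arrays correlated in their deviations from the group means at 0.703 to 0.767 (same slide, other number: 0.69 to 0.725). Arrays of a slide were thus alike, and the numbers showed no clear pairing beyond the slide. For Gyk (0.0536 to 0.116), room temperature (-0.094 to 0.0232) and cold (0.0412 to 0.499) the numbers did not pair the arrays. Alternatives were normexp background (offset 50, on median signals, since the files hold no mean signal column), quantile and median scaling, other filters, the mean of all probes, slide and replicate blocks, and leaving out arrays. The number of arrays limits the precision.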

Additional observations from a re-analysis of the deposited data

Results flagged for a closer look

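In 11 of the 206 groups of 4 arrays checked, 1 array stood far from the other 3 for a member named here, and chance gives about 1 in 20. These were Psmb5 at 7.28 on Gyk knockdown array 1 (lowest) and at 7.63 on room temperature control 4 (highest), Psmb6 at 6.17 on Pparg knockdown array 2 (lowest), and Psmb8 at 1.94 on room temperature labelled knockout 4 (highest). Psme1 read 4.71 on Gyk knockdown array 1 (lowest) and Psme2 5.48 on cold control 1 (lowest). Psma6 read 4.58 on Gyk control 2 (highest) and 5.09 on cold control 3 (lowest). On cold control 4 Psmc1 read 6.93 (highest), on cold control 3 Psmc5 read 2.52 (lowest), and on room temperature control 1 Psmd1 read 4.08 (highest).

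Temperature and experiment cannot be told apart in the following. The response to the labelled knockout differed between the cold and room temperature for 12 members in limma, as differences of differences on the log2 scale. In the core these were Psma1 (-0.60, adjusted p = 0.024), Psma3 (-0.47, adjusted p = 0.048), Psmb1 (-0.61, adjusted p = 0.0188), Psmb2 (-0.48, adjusted p = 0.0439) and Psmb4 (-0.50, adjusted p = 0.013). In the regulatory particle they were Psmc1 (-0.66, adjusted p = 0.0146), Psmd1 (-0.91), Psmd7 (-0.50, adjusted p = 0.0443), Psmd12 (-0.64, adjusted p = 0.0276), Psmd13 (-0.91) and Psmd14 (-1.01), and its chaperone Psmd5 (-0.71, adjusted p = 0.00622). Psmd5 is the member that rose with the labelled knockout at room temperature and fell with it in the cold.

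The response to Pparg knockdown in culture differed from that to Gyk knockdown for Psmb6 (-0.52), Psmc1 (-0.63, adjusted p = 0.0319), Psmd10 (-0.50, adjusted p = 0.0341) and Psmd11 (-0.62) in limma. For Psmc1 the direction depended on the probe.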

How the results depend on the processing

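Of 7904 recomputed member values, 7260 kept their call or lack of one (207 of them uncalled values whose sign turned), 480 lost the call, 156 gained it and 8 changed sign with a call on at least 1 side. With the mean of all probes, 7 cold against room temperature values turned: Psma4 -0.13, Psmd10 -1.33 and Psmd12 -0.29 in control mice, and Psma4 -0.47, Psmc1 -0.64, Psmd10 -2.02 and Psmg1 -0.82 on arrays labelled knockout. Psmd6 turned to -0.47 for Pparg against Gyk knockdown without Gyk knockdown arrays 3 and 4. Psma4 on arrays labelled knockout and Psmd6 were called only under these alternatives. Counts of called members moved as follows. The normexp background gave 7 for Pparg knockdown (2 higher and 5 lower, against 2 and 11), 0 for Gyk knockdown (10 at an unadjusted p under 0.05), 10 at room temperature, 15 for cold against room temperature on arrays labelled knockout, 4 for the difference between temperatures and 0 between the knockdowns (8 unadjusted). Quantile normalization gave 8 for Pparg knockdown. Without a filter on dim probes Gyk knockdown gave 0 (9 unadjusted) and the difference between knockdowns 0 (15 unadjusted). The mean of all probes, or leaving out Gyk knockdown arrays 3 and 4, gave 1 for Gyk knockdown. Without the arrays where Myh4 was well above background, or only above the 75th percentile, the counts were 0 and 16 in the cold and 0 and 5 for the difference between temperatures. The replicate block, which pairs arrays by number, gave 33 members for Pparg knockdown, 0 for Gyk knockdown (8 unadjusted) and 9 between the knockdowns, and moved no other count by over 1.5 times (14 at room temperature, 33 in the cold). The slide block gave 32 for Pparg knockdown and 17 between the knockdowns. Leaving out 1 array gave 9 to 14 for Pparg knockdown, 0 to 6 for Gyk knockdown, 13 to 17 at room temperature, 27 to 36 in the cold, 7 to 21 for the difference between temperatures, 0 to 9 between the knockdowns, and 35 to 39 and 19 to 24 for cold against room temperature in control mice and on arrays labelled knockout. The causes were not tested, apart from the fewer arrays where some were left out.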

Other observations

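The 2 probes of Psmc1, both well above background on all 32 arrays, differed in direction for cold against room temperature in control mice, at 1.11 for the probe used here and -1.08 for the other. Psmc3ip and Psme3ip1, which share the name pattern but are not subunits, stood at -0.13 (limma adjusted p = 0.614) and -0.38 (limma adjusted p = 0.0432) on cold arrays labelled knockout against their controls.

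Outside the proteasome, 3 of 6 preadipocyte markers rose on cold arrays labelled knockout, where 14.0% of all genes rose. Their summed level was 4.48 to 4.61 on controls and 4.72 to 5.34 on arrays labelled knockout. After Pparg knockdown in culture 3 of 6 rose, where 17.3% of all genes rose, and the sum went from 2.31 to 2.43 up to 2.94 to 3.03. Not all of the list moved up: the mean of Dlk1 was 0.02 and 0.05 in the cold and 0.57 and 0.58 in culture. That of Zfp423 went from 0.39 to 0.22 in culture.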
